A study of Homo sapiens with 24 samples.

Results

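The expression of 10 genes for secreted chemokines and cytokines was examined, 10 of the 30276 gene rows of the expression table of this study. They were CXCL1, CXCL2, CXCL3, CXCL5, CXCL8 (interleukin 8), CXCL16, CCL20, IL6, IL18 and LIF. Each was found by its exact symbol, and each had 1 row that named no other gene. The search itself used symbols and no measured value. The study asked how ISOX, an inhibitor of histone deacetylases with its strongest effect on HDAC6, altered the transcriptome of pancreatic cancer (PC) cells. RNA sequencing was performed on CD18/HPAF, an established and well-differentiated human pancreatic adenocarcinoma line grown in serum-containing medium. There were 12 untreated samples and 12 samples treated with 1 µM ISOX for 48 h, and the controls were labelled as untreated rather than as vehicle-treated. The titles number the samples of each group by 3 first and 4 second numbers, and whether the second number marks separate cultures or repeat runs was not stated. The table held 1 pooled FPKM (fragments normalised to transcript length and to the mapped fragments of the library) per gene and group, so no value below has a replicate error, no difference was tested, and all statements describe these pooled values for 1 cell line.

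Chemokines are small secreted proteins that attract leukocytes through G protein-coupled receptors. CXC chemokines with a glutamate-leucine-arginine (ELR) motif, among them CXCL1, CXCL2, CXCL3, CXCL5 and CXCL8, act on CXCR2, and CXCL8 also acts on CXCR1, to draw neutrophils. CCL20 attracts cells that carry CCR6. CXCL16 is made as a membrane-bound protein that binds CXCR6. IL-6 and LIF signal through the shared receptor chain gp130 (IL6ST) to STAT3, while IL-18 is a member of the IL-1 family that is made as a precursor and cut by caspase-1. Many of these genes are induced by the transcription factor NF-kB, and pancreatic tumour cells are a known source of several of the proteins.

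Of the 10 genes, 4 had a mean of both groups of at least 1 FPKM, namely IL18, LIF, CXCL5 and CXCL16. IL18 was the most highly expressed, at 48.2 FPKM in untreated cells and 101 FPKM in ISOX-treated cells. LIF was at 23.4 FPKM untreated and 35.5 FPKM with ISOX. CXCL5 stood at 21.1 FPKM untreated and 13.4 FPKM with ISOX, and CXCL16 at 17.4 and 13.0 FPKM. The 2 cytokine genes of this group were thus higher with ISOX and the 2 chemokine genes were lower.

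The other 6 genes lay near or below 1 FPKM. CXCL1 and CXCL3 were below 1 FPKM in both groups, and IL6 was listed at 0 in both. CXCL2 and CXCL8 were below 1 FPKM in untreated cells and just above it with ISOX, whereas CCL20 was just above 1 FPKM in untreated cells and below it with ISOX. In all, 5 genes of the 10 lay under 1 FPKM untreated, against 4 with ISOX. The authors' table carries a flag for rows that Cuffdiff did not put to its own test, and all 6 of these genes carried it.

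**Figure D1:**
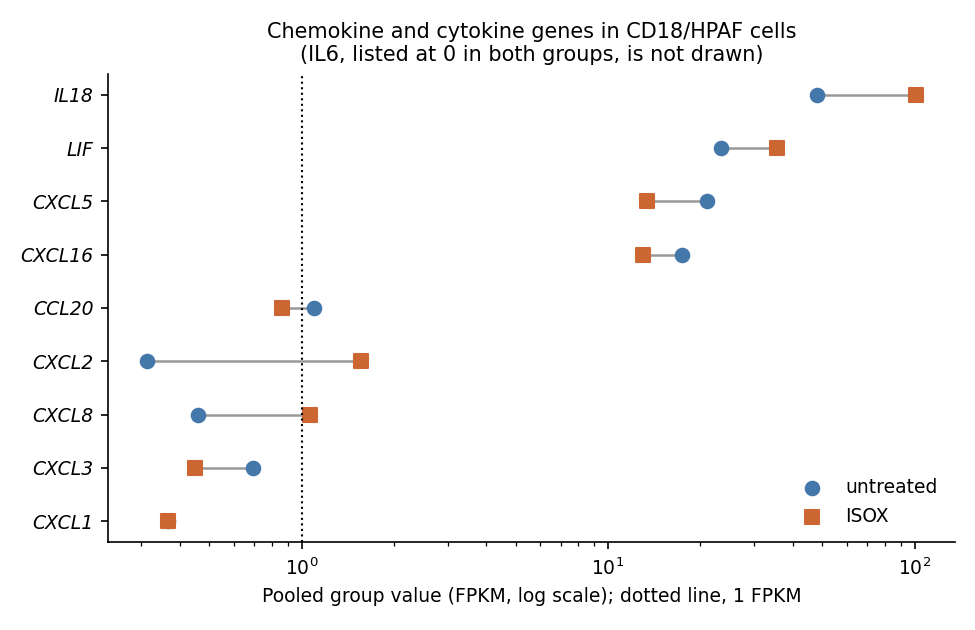
Pooled expression of 9 genes in untreated (circles) and ISOX-treated (squares) CD18/HPAF cells, in FPKM on a log axis, with a dotted line at 1 FPKM. IL18, LIF, CXCL5 and CXCL16 stand between 13.0 and 101 FPKM, the other genes stand below 2 FPKM, the CXCL1 points coincide at 0.37 FPKM, and IL6 (listed at 0) is not drawn.

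The ratio of ISOX to untreated was at least 2-fold higher for 1 of the 4 genes with a mean of at least 1 FPKM (IL18, 2.10-fold) and at least 2-fold lower for none of them. Among all 11915 rows with a mean of at least 1 FPKM and both groups above 0, 356 rows, or 2.99%, were at least 2-fold higher and 71 rows, or 0.596%, were at least 2-fold lower. The ratios of the whole table were shifted upwards: the median log2 ratio of these rows was 0.21 (1.16-fold), and 77.1% of them were above 0. Relative to that median the split of all rows was 191 higher and 139 lower. The 4 genes had a median log2 ratio of 0.09. Relative to the median of all rows IL18 was at 0.86, short of 2-fold, and LIF was at 0.39, CXCL16 at -0.64 and CXCL5 at -0.86.

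Without the minimum level, 3 of the 9 genes with values above 0 were at least 2-fold higher (CXCL2, CXCL8 and IL18) and 0 were at least 2-fold lower. Such ratios are more common among weakly expressed rows. Of the 1748 rows with a mean between 0.25 and 1 FPKM, 11.6% were at least 2-fold higher and 7.55% at least 2-fold lower. Each gene was therefore also set beside the rows whose mean level lay within a factor of 2 of its own. The range from the 5th to the 95th percentile of their log2 ratios describes how widely genes of that level differed, and is not an error of the gene's own value. CXCL2 and IL18 lay above that range, CXCL5 and CXCL16 lay below it, and the other 5 genes lay within it.

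**Figure D2:**
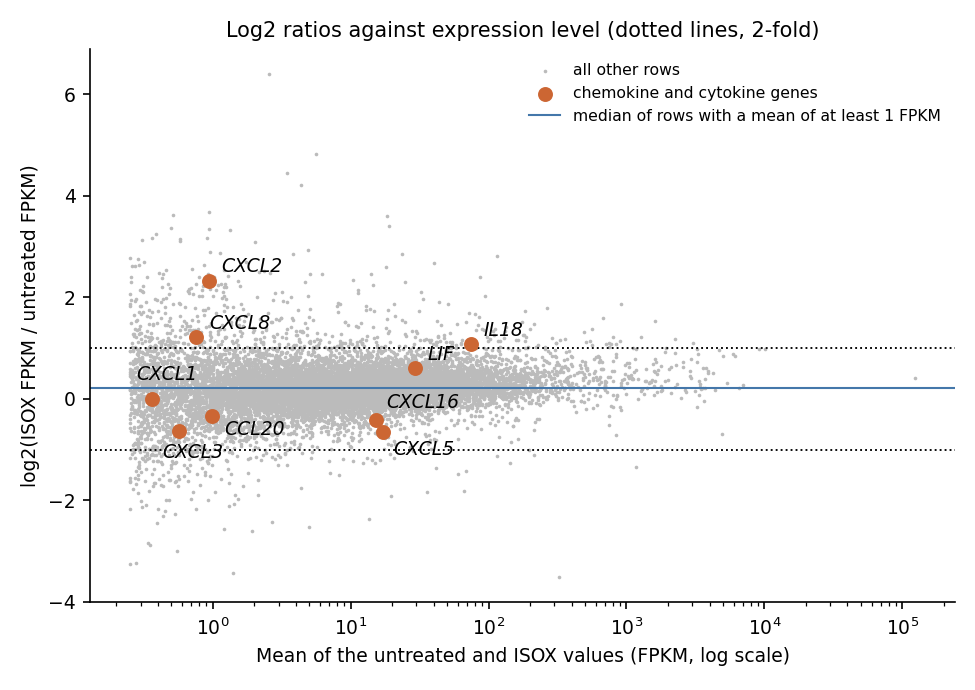
Log2 ratio of ISOX to untreated FPKM against the mean of both groups (FPKM, log axis), with 9 named genes in colour. Grey points are the rows with both values above 0 and a mean of at least 0.25 FPKM. Dotted lines mark 2-fold. The grey cloud widens below 1 FPKM, where CXCL1, CXCL3, CXCL8, CCL20 and CXCL2 lie close to that level, while IL18, LIF, CXCL5 and CXCL16 lie in its narrow part.

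Of the neutrophil-attracting CXC chemokines, CXCL5 was by far the most abundant transcript. Its row lay on chromosome 4 (hg38, chr4:73995642-73998729) and ranked at position 4423 of 30276 by mean level. It was at 21.1 FPKM in untreated cells and 13.4 FPKM in ISOX-treated cells, 1.57-fold lower, with a log2 ratio of -0.65. The 4321 rows of like level had log2 ratios from -0.25 to 0.73 between their 5th and 95th percentiles, and 1.78% of all rows of at least 1 FPKM had a lower ratio than CXCL5.

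CXCL2 (chr4:74097037-74099280) had a ratio in the other direction. It was at 0.312 FPKM in untreated cells and 1.56 FPKM with ISOX, a 5.01-fold higher value and a log2 ratio of 2.33. The 2035 rows of like level spanned -0.90 to 1.32. Its mean was below 1 FPKM, so this ratio rests on a low untreated value, and it became 0.97 on the log2 scale once 1 FPKM was added to both groups.

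CXCL8 (chr4:73740506-73744635), whose protein is a principal neutrophil attractant in humans, was at 0.458 FPKM untreated and 1.06 FPKM with ISOX. The ratio was 2.32-fold, or 1.22 on the log2 scale, within the span of -1.02 to 1.43 of its 1894 rows of like level. CXCL3 (chr4:74036591-74038773) was at 0.696 FPKM untreated and 0.447 FPKM with ISOX, with a log2 ratio of -0.64 within a span of -1.11 to 1.45. CXCL1 (chr4:73869392-73871302) had almost the same value in both groups, 0.366 FPKM untreated and 0.365 FPKM with ISOX. Relative to the median of all rows its log2 ratio was -0.21.

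In the pooled values these opposite directions altered the make-up of the group. The parts of CXCL2 and CXCL8 in this rest on means below 1 FPKM, and the ratio of CXCL8 lay within the range of rows of like level. Summed over the 7 ELR CXC ligands (CXCL1, CXCL2, CXCL3, CXCL5, CXCL6, PPBP and CXCL8), expression was 22.9 FPKM in untreated cells and 16.8 FPKM with ISOX. CXCL5 made up 92.0% of the untreated sum and 79.6% of the ISOX sum. The share of CXCL2 was 1.36% untreated and 9.29% with ISOX, and that of CXCL8 was 2.0% and 6.33%. Without CXCL5 the other 6 ligands summed to 1.83 FPKM untreated and 3.44 FPKM with ISOX, a log2 ratio of 0.91, against -0.44 with CXCL5 included. The direction for the family as a whole was therefore that of CXCL5, and CXCL6 and PPBP were listed at 0 in both groups.

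The CXCL1, CXCL2 and CXCL3 transcripts resemble each other, and fragments shared by them could be assigned to either gene. Of all 75-base words in the annotated transcripts of CXCL2, 6.87% also occurred in CXCL3, while 4.57% of the CXCL3 words occurred in CXCL2. CXCL1 shared 0.245% of its words with CXCL2 and none of them with CXCL3, and CXCL5 shared none with the other three. With words of 30 bases, CXCL1 shared 13.7% with CXCL2 and 3.47% with CXCL3, CXCL2 shared 14.0% with CXCL3, and CXCL5 again shared none with them. The sources used here do not say how shared reads were counted, so the split among CXCL1, CXCL2 and CXCL3 is uncertain.

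All 5 ELR chemokine genes lay within 358.8 kb of chromosome 4, a cluster that arose by gene duplication, and their ratios did not follow their order. Counted from the start of CXCL8, CXCL1 began at 129 kb, CXCL5 at 255 kb, CXCL3 at 296 kb and CXCL2 at 357 kb, with log2 ratios of -0.00, -0.65, -0.64 and 2.33. Between them PF4V1 was at 0.135 FPKM untreated and 0.0893 FPKM with ISOX, PF4 at 0 and 0.0632 FPKM, and the pseudogene PPBPP2 at 0.0690 and 0.0792 FPKM. The cluster thus held only 1 gene with a level well above 1 FPKM, CXCL5.

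The rows next to the chemokines differed from them. On the CXCL8 side, ALB was at 0.0192 FPKM untreated and 0 with ISOX, AFP and AFM were listed at 0, and RASSF6 was at 3.20 and 4.07 FPKM. On the CXCL2 side, MTHFD2L was at 1.10 and 1.23 FPKM. Beyond it lie genes for ligands of the epidermal growth factor receptor. EREG (epiregulin), 625 kb from the CXCL8 start, was at 72.9 FPKM untreated and 160.4 FPKM with ISOX, and AREG (amphiregulin), at 705 kb, was at 41.8 and 128 FPKM, log2 ratios of 1.14 and 1.61. BTC (betacellulin) was at 5.05 and 7.72 FPKM, EPGN at 0.0482 and 0.0487 FPKM, and PARM1 at 0.00812 and 0 FPKM. Among the 6 rows of this stretch with a mean of at least 1 FPKM, 2 were at least 2-fold higher (EREG and AREG), and CXCL5 alone had a log2 ratio below 0.

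**Figure D3:**
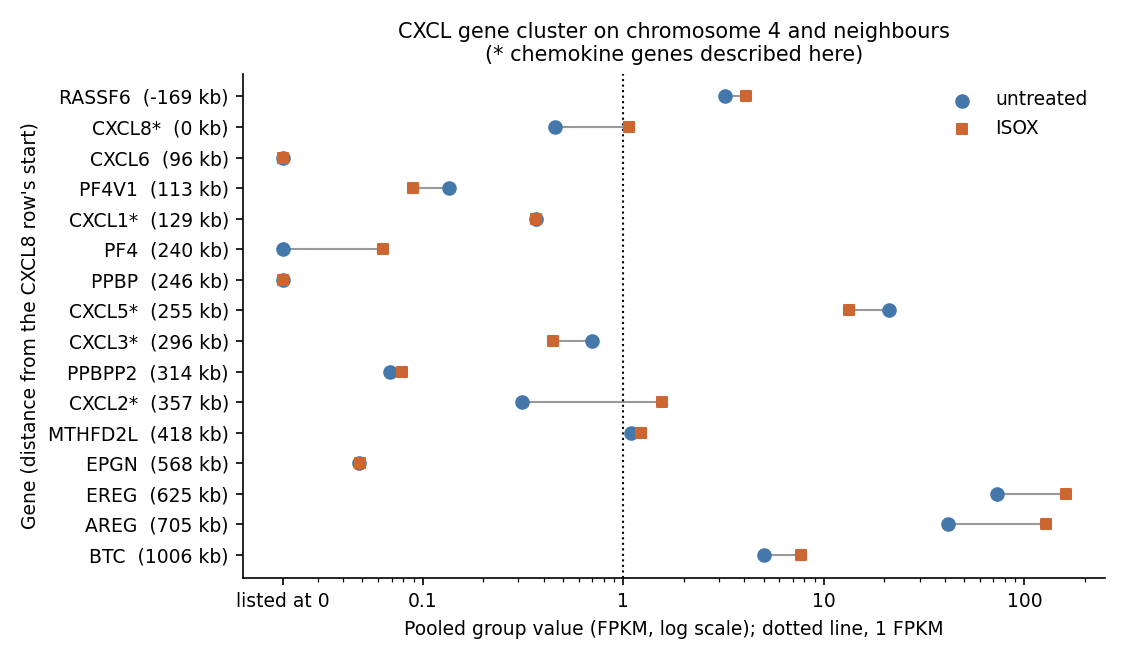
Pooled FPKM (log axis) of the genes along the CXCL cluster of chromosome 4 in untreated and ISOX-treated cells, ordered by their distance in kb from the start of CXCL8; asterisks mark the chemokine genes described in the text. CXCL5 is the only chemokine of the stretch above 2 FPKM, and EREG and AREG, farther along, are the highest rows, at 72.9 and 41.8 FPKM untreated.

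The promoters of 7 of the 10 genes were found in the RefSeq promoter table (GRCh38.p14), and the 250 bases before each start were searched on both strands. The search covered the NF-kB pattern GGGRNNYYCC, the AP-1 motif TGANTCA, the TATA motif TATAAA and the GC box GGGCGG. Here R stands for A or G, Y for C or T and N for any base. A site that departs from its pattern at any base was not counted. Across all 35116 promoters, 9.96% held an NF-kB match, 6.57% an AP-1 match, 10.7% a TATAAA and 42.6% a GGGCGG. The stretches from 120 to 31 bases before the start are shown for CXCL1, CXCL2, CXCL3 and CXCL5, because these 4 genes carried the same palindromic NF-kB match but had different ratios. For CXCL8 the stretches with its AP-1 and TATAAA matches are shown. Matches are in capitals, and sequences read 5′ to 3′ on the strand of the gene.
CXCL1, chr4:73869273-73869362, plus strand: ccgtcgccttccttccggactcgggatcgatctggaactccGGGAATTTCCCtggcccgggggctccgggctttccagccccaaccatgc
CXCL3, chr4:74038720-74038809, minus strand: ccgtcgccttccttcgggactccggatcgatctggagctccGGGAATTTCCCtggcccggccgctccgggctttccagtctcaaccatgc
CXCL2, chr4:74099226-74099315, minus strand: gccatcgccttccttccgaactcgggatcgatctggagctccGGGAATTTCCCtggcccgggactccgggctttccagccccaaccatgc
CXCL5, chr4:73998708-73998797, minus strand: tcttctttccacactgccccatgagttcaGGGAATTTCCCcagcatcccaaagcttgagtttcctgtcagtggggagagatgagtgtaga
CXCL8, AP-1 match, chr4:73740409-73740468, plus strand: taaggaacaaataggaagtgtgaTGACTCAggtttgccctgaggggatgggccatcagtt
CXCL8, TATAAA match, chr4:73740509-73740568, plus strand: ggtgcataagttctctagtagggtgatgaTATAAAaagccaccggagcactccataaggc

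The capitals GGGAATTTCCC join 2 NF-kB matches, 1 on each strand, that overlap at all but 1 base. The plus-strand match began at base -79 in CXCL1 and CXCL3, -78 in CXCL2 and -91 in CXCL5, where -1 is the base before the RefSeq start. These 90 bases were compared in pairs without gaps, at whichever small shift gave the most identical bases. CXCL1 and CXCL3 were then identical at 92.2% of bases, CXCL1 and CXCL2 at 76.7% and CXCL2 and CXCL3 at 72.2%. CXCL5 was identical to the others at 35.6% to 36.7% of bases, also the largest values over these shifts. The NF-kB match of CXCL2 lies 1 base nearer the start than in CXCL1 and CXCL3. No single shift therefore lines up the bases on both sides of it, and the values for CXCL2 understate its likeness to CXCL1 and CXCL3. Which pair is the most similar cannot be read from this ungapped comparison. CXCL1 and CXCL3 had log2 ratios of -0.00 and -0.64, while CXCL2 was at 2.33. The means of all of these genes were below 1 FPKM, and CXCL1 and CXCL3 lay within the range of rows of like level. The split of shared reads among them is also uncertain, so no link between promoter likeness and ratio can be read from these values. An NF-kB match was also found in IL6 (GGGATTTTCC, from base -73). CCL20 had an NF-kB match on the opposite strand only (GGAAAACCCC as read on the strand of the gene, from base -79). CXCL8 had no match to the NF-kB pattern in this window, but had the AP-1 match at -137 and TATAAA at -31. This does not show that CXCL8 lacks an NF-kB site. CCL20 had TATAAA at -29, and CXCL1 and CXCL3 had GGGCGG at -128. A match describes letters of the reference sequence only. For several genes the deposited row began before the RefSeq start, so that these stretches lay partly inside the row.

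CXCL16, a chemokine with a transmembrane form that also serves as a scavenger receptor, was the other well-expressed chemokine. Its row (chr17:4731408-4739928) was at 17.4 FPKM in untreated cells and 13.0 FPKM with ISOX. This was 1.34-fold lower, with a log2 ratio of -0.42 against -0.25 to 0.72 for its 4471 rows of like level. Exons of MED11 overlap the gene on the opposite strand, and use of strand in the counting was not stated. The proteases ADAM10 and ADAM17, which release the soluble form of CXCL16, were at 42.9 and 10.6 FPKM untreated and at 53.7 and 15.1 FPKM with ISOX, log2 ratios of 0.32 and 0.51. CXCR6, its receptor, was at 0.0963 FPKM untreated and 0.0995 FPKM with ISOX.

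CCL20 (chr2:227813842-227817564) attracts CCR6-bearing dendritic cells and lymphocytes. It was at 1.10 FPKM in untreated cells and 0.865 FPKM with ISOX, with a log2 ratio of -0.35 within the span of -0.85 to 1.28 of its 2077 rows of like level. Its mean of 0.983 FPKM was just short of 1 FPKM, next to CXCL2 with a mean of 0.938 FPKM. CCR6 was at 0.0301 FPKM untreated and 0.0541 FPKM with ISOX.

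Across all 46 chemokine ligand genes found in the table, the sum was 53.9 FPKM in untreated cells and 45.5 FPKM with ISOX. CXCL5 and CXCL16 together with CCL28, a mucosal chemokine at 10.3 and 10.0 FPKM, made up most of it. CXCL5 held 39.1% of the untreated sum and 29.5% of the ISOX sum, CXCL16 held 32.3% and 28.5%, and CCL28 held 19.1% and 22.0%. Of the 17 CXC genes, 2 had a mean of at least 1 FPKM (CXCL5 and CXCL16) and 6 were listed at 0 in both groups. Of the 29 CC, C and CX3C genes found, 3 had a mean of at least 1 FPKM. Their rows included 18 listed at 0 in both groups, 1 of them shared by CCL4L1 and CCL4L2. CCL24 (eotaxin-2) was the only one of those 3 that was at least 2-fold higher, at 0.559 FPKM untreated and 2.61 FPKM with ISOX. It reached the minimum mean only through its ISOX value, and its row carried the flag for rows that Cuffdiff did not test.

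Few receptors for these chemokines had values of at least 1 FPKM in the same table. CXCR1, CXCR2 and ACKR1, through which the ELR chemokines act or by which they are bound, were listed at 0 in both groups. Of 22 chemokine receptor genes, 12 were listed at 0 and 1 had a mean of at least 1 FPKM. That gene was ACKR4, an atypical scavenging receptor, at 5.58 FPKM untreated and 2.90 FPKM with ISOX. Exons of ACAD11 overlap it on the opposite strand and use of strand was not stated, so its value cannot be assigned to ACKR4 alone.

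Of the gp130 cytokines, LIF was the only one of the pair examined that had a value. LIF maintains an undifferentiated state in mouse embryonic stem cells and is made by many tumours. Its row (chr22:30240447-30257476) was at 23.4 FPKM in untreated cells and 35.5 FPKM with ISOX, 1.52-fold higher, with a log2 ratio of 0.60. The 3388 rows of like level spanned -0.20 to 0.76, and 88.5% of all rows of at least 1 FPKM had a lower ratio than LIF. LIF-AS1 and AC004264.1 overlap it on the opposite strand. IL6 (chr7:22725395-22732002), which encodes a major inducer of the acute-phase response, was listed at 0 in both groups. No ratio can be formed, and a listed 0 in a table without counts gives no upper limit.

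Of the 9 genes for IL-6 family ligands, 5 had a mean of at least 1 FPKM, with a median log2 ratio of 0.60, and the 4 of them other than LIF had a median of 0.58. Of these 4, CNTF shares its row with ZFP91, so that value (37.5 and 45.1 FPKM) cannot be assigned to CNTF. IL11, which acts through gp130 as LIF does, was the 1 gene at least 2-fold higher, at 0.428 FPKM untreated and 1.98 FPKM with ISOX (log2 ratio 2.21). None was at least 2-fold lower. IL11 reached the minimum mean only through its ISOX value, and its row carried the flag for rows that Cuffdiff did not put to its own test. On the receptor side, IL6ST was at 11.0 FPKM untreated and 15.5 FPKM with ISOX and LIFR at 0.771 and 1.35 FPKM, log2 ratios of 0.50 and 0.81. IL6R was at 0.252 FPKM untreated and 0.453 FPKM with ISOX. Of the 8 receptor genes of the family, 4 had a mean of at least 1 FPKM, with a median of 0.43, and none was 2-fold different. OSMR, the oncostatin M receptor chain, was the highest of them at 14.1 and 18.2 FPKM. The opposite strand carries overlapping exons of RICTOR at OSMR, of LIFR-AS1 at LIFR and of IAH1 at ADAM17, and the use of strand was not stated.

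Of 15 genes of JAK-STAT3 signalling and its feedback, 12 had a mean of at least 1 FPKM, none of them at least 2-fold higher or lower. Their log2 ratios ran from -0.05 to 0.96 with a median of 0.32, beside 0.21 for all rows. The highest ratio was that of SOCS3, a feedback inhibitor, at 1.48 FPKM untreated and 2.88 FPKM with ISOX. PTPN11 (SHP2 phosphatase) was at 35.3 FPKM untreated and 45.0 FPKM with ISOX, with overlapping exons of RPL6 on the opposite strand, and STAT3, the transcription factor that LIF activates through gp130, was at 18.4 and 21.7 FPKM.

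IL18 gave the largest difference in level of the 10 genes. Its row (chr11:112143251-112164117) was at position 1204 of 30276 by mean level. The value was 48.2 FPKM in untreated cells and 101 FPKM with ISOX, 53.1 FPKM higher, with a ratio of 2.10 and a log2 ratio of 1.07. The 1758 rows of like level spanned -0.14 to 0.86 with a median of 0.28, and 97.6% of all rows of at least 1 FPKM had a lower ratio than IL18. No annotated exon of another gene overlaps IL18.

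Genes that act on IL-18 showed no common direction. CASP1, the protease that matures the precursor, was at 2.59 FPKM in untreated cells and 1.56 FPKM with ISOX, a log2 ratio of -0.73. CASP4, an inflammatory caspase that can also cleave pro-IL-18, was at 46.8 and 74.1 FPKM, a log2 ratio of 0.66. These were the lowest and the highest ratios of the 7 genes with a mean of at least 1 FPKM among 14 for IL-18 processing and the inflammasome. That list had a median of 0.03 and no gene with a 2-fold difference, and GSDMD, which forms the pore of pyroptosis, was at 33.0 and 34.1 FPKM. IL18BP, the secreted antagonist, was at 2.84 and 3.18 FPKM, though exons of NUMA1 overlap it. The receptor chains IL18R1, at 0.0452 and 0.0276 FPKM, and IL18RAP, listed at 0, did not reach 1 FPKM.

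IL18 was also the only gene at least 2-fold higher among 12 IL-1 family ligands and binding proteins, of which IL18 and IL18BP alone had a mean of at least 1 FPKM. Of 9 receptor genes of the IL-1 family, 3 reached that mean, with a median of 0.29 and none 2-fold different. SIGIRR was at 21.1 FPKM untreated and 20.3 FPKM with ISOX, and IL1RAP was at 6.79 and 10.0 FPKM.

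Genes of the pathways known to set chemokine mRNA levels were compared next. All 14 genes for NF-kB subunits, their inhibitors and the IkB kinases had a mean of at least 1 FPKM. None was at least 2-fold higher or lower, and their log2 ratios ran from -0.64 to 0.41 with a median of 0.03. The lowest ratio belongs to a row that joins NFKBIZ with NXPE3 and cannot be assigned to NFKBIZ alone. NFKBIA, the inhibitor IkB-alpha and itself an NF-kB target, was at 48.4 FPKM untreated and 43.7 FPKM with ISOX, and RELA (p65) was at 27.1 and 32.0 FPKM. Of 26 NF-kB target genes outside the chemokines, 16 had a mean of at least 1 FPKM, with a median of 0.32. One of them, GADD45B, a stress-induced gene, was at least 2-fold higher at 12.2 and 26.5 FPKM, and none was at least 2-fold lower. RNA levels of these genes do not measure NF-kB activity. All 11 genes for factors that bind AU-rich elements or otherwise degrade or stabilise short-lived mRNAs had a mean of at least 1 FPKM, with a median of 0.09 and none 2-fold different. The highest were HNRNPD (AUF1) at 121 and 128 FPKM and ZFP36 (tristetraprolin) at 40.2 and 44.3 FPKM.

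**Figure D4:**
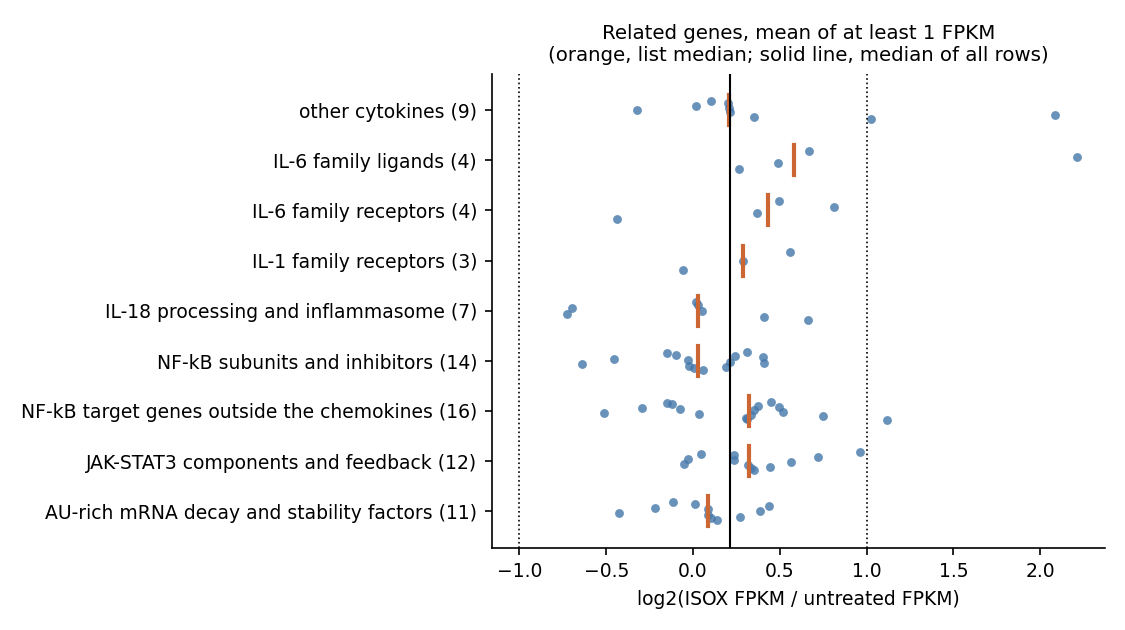
Log2 ratios of ISOX to untreated FPKM for genes of related lists with a mean of at least 1 FPKM (the 10 genes themselves left out), 1 point per gene, with dotted lines at 2-fold, the list median in orange and the median of all rows (0.21) as a solid line. The NF-kB subunits and inhibitors centre on 0.03 and the decay factors on 0.09, below the line, and the 4 IL-6 family ligands drawn (without LIF) centre on 0.58, above it.

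The label of the cells was checked against marker genes. All 11 ductal epithelium markers had a mean of at least 1 FPKM, led by KRT19 at 2970 and 3325 FPKM, with summed levels of 6652 FPKM untreated and 8063 FPKM with ISOX. No acinar or endothelial marker reached 1 FPKM (9 and 7 genes). Of 16 leukocyte markers, 3 had a mean of at least 1 FPKM, LYZ, CD68 and CD14, and their sum was 481 FPKM untreated and 843 FPKM with ISOX. LYZ, at 458 and 809 FPKM, made up nearly all of it, and CD14, at 2.68 and 7.02 FPKM, was the 1 marker of this list at least 2-fold higher. The pan-leukocyte gene PTPRC was at 0.00579 and 0.0118 FPKM, and CD3E, MS4A1, FCGR3A, FCGR3B, NKG7 and TYROBP were listed at 0 in both groups. Of 10 fibroblast markers, LUM (12.9 and 36.8 FPKM) and COL1A1 (2.48 and 2.75 FPKM) exceeded 1 FPKM, LUM was the 1 marker of the list at least 2-fold higher, the list summed to 15.7 and 40.6 FPKM, and PDGFRA, FAP and THY1 were listed at 0. The part of these genes in the chemokine and cytokine values was not tested. In bulk samples of this kind, a change in the share of cells that express a gene and a change in RNA per cell cannot be told apart.

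The direction of each ratio was the same under the 5 ways of forming it that were tried, while sizes moved. Adding 1 FPKM to both groups brought CXCL2 to 0.97 and CXCL8 to 0.50 on the log2 scale, both under 2-fold, and left IL18 at 1.06. Scaling both groups to the same FPKM sum, without the single highest row, lowered every log2 ratio by 0.39. IL18 then stood at 0.69 and LIF at 0.22, and CXCL5, at -1.04, and CXCL3, at -1.02, were at least 2-fold lower. IL18 was thus at least 2-fold higher only when the values were taken as deposited or with a constant added.

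**Figure D5:**
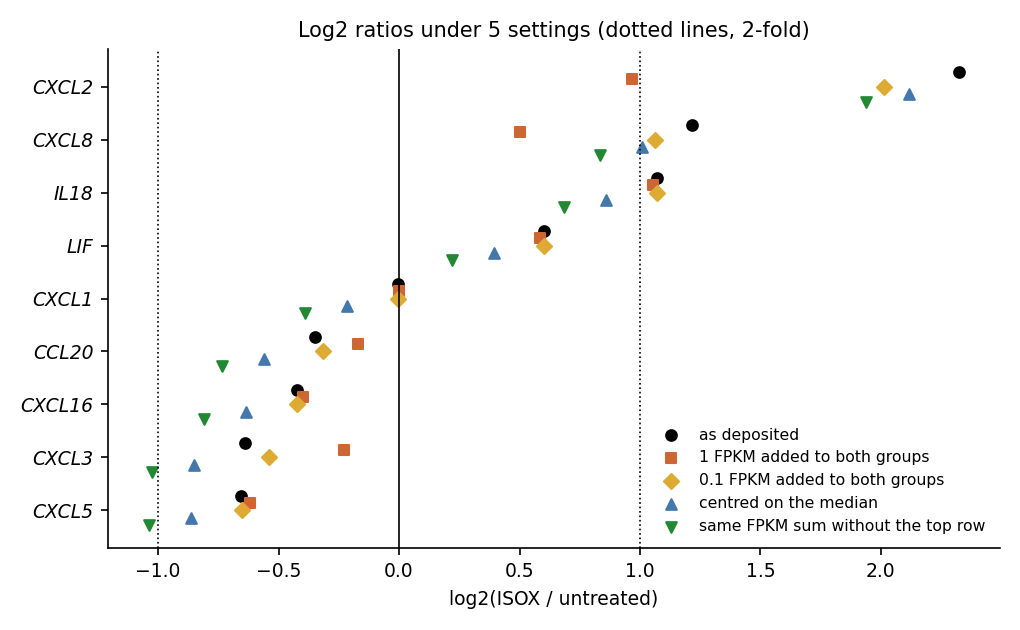
Log2 ratios of ISOX to untreated for 9 genes under 5 settings: values as deposited, 1 or 0.1 FPKM added to both groups, centred on the median of all rows, and scaled to the same FPKM sum; dotted lines mark 2-fold. No gene crosses 0, CXCL2 shortens from 2.33 to 0.97 with 1 FPKM added, and IL18 passes below the 2-fold line at 0.86 when centred and 0.69 when scaled.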

How the data were processed

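RNA was isolated with the mirVana kit, libraries were made with the Illumina TruSeq RNA kit and read as paired ends of 75 bases. The authors aligned reads to hg38 with TopHat and Bowtie and used Cufflinks and Cuffdiff. The program versions, the filters and any use of strand were not given in the sources used here. Per gene row, the deposited table gave 1 pooled FPKM for each group. No read counts were given with these values, so the depth is unknown and no interval could be given. The authors' own fold change, test statistic, p and q columns were not used.

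From the pooled FPKM, log2 ratios of ISOX over untreated were formed. A 2-fold difference was counted among rows with a mean of at least 1 FPKM and both groups above 0, which left out 49 rows listed at 0 in 1 group. Of the table's rows, 599 joined several gene names and 1749 had no name. No test was possible. All 10 genes were described in full, as were the chromosome 4 rows and the binding partners. From 21 lists in all, the others were given by counts, with up to 4 genes at least 2-fold different, or else the 2 of highest mean. A further gene was left out of the lists and is not reported here. Genes outside that rule, such as CCL28, MIF, SOCS3 and the genes listed at 0, were named after their values were seen. The members and lists were chosen with earlier results of these data known. Overlaps and shared words used GENCODE transcripts, and promoters were from RefSeq. Scripts ran in Python 3.11.15 with pandas 2.3.3 and numpy 2.4.6 and were tested on simulated data.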

Additional observations from a re-analysis of the deposited data

How the results depend on the processing

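The pooled table sets the limit: with 1 value per group, leaving out replicates could not be run. No paired analysis was possible because the table held 1 pooled value per group. Of the 4 genes with a mean of at least 1 FPKM, 1 was at least 2-fold higher. The count was 0 after centring on the median of all rows and 0 with equal FPKM sums, 3 with no minimum and 2 at a fold of 1.5. The count lower was 0, and it was 1 with equal sums and 1 at a fold of 1.5 (CXCL5 in both). Over all rows, 356 higher and 71 lower became 222 and 36 with 1 FPKM added, 191 and 139 when centred, 133 and 244 with equal sums, 1123 and 654 of 16456 with no minimum, 212 and 28 of 8614 at a minimum of 5 FPKM, and 1474 and 268 at a fold of 1.5. The median log2 ratio of the 4 genes, 0.0892, was 0.0923 with 1 FPKM added, 0.0896 with 0.1 FPKM added, -0.1212 when centred, -0.2959 with equal sums and -0.0043 over the 9 genes with no minimum, and their mean was 0.1489. That median thus changed sign with the scaling, by construction, since centring and equal sums subtract 0.21 and 0.39 from each log2 ratio. Leaving out rows that join several gene names gave 347 higher and 70 lower, and adding 0.1 FPKM gave 333 and 65, with the counts for the 4 genes as before.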

Other observations

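Among 28 further cytokine genes, 19 were below 1 FPKM in both groups and 9 had a mean of at least 1 FPKM, with a median log2 ratio of 0.21, the same as all rows. Of these 9, 2 were at least 2-fold higher and none was at least 2-fold lower. TNFSF15 (TL1A), a TNF family cytokine that binds DR3, was at 1.08 FPKM in untreated cells and 4.6 FPKM with ISOX, a log2 ratio of 2.09. IL15, a growth factor for natural killer and memory T cells, was at 2.24 FPKM untreated and 4.55 FPKM with ISOX, a log2 ratio of 1.02. Like IL18, IL15 would be under 2-fold relative to the median of all rows. The rows of TNFSF15 and IL15 both carried the flag for rows that Cuffdiff did not test. The most abundant of the 9 was MIF, macrophage migration inhibitory factor, at 2463 FPKM untreated and 2491 FPKM with ISOX. Exons of AP000350.4 on the same strand and of MIF-AS1 on the opposite strand overlap it, so its value cannot be assigned to MIF alone.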
